A study of Homo sapiens with 24 samples.

Results

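The genes described here are the transcription factors and regulators of the integrated stress response, ATF4, CEBPB, CEBPG, ATF3, DDIT3, PPP1R15A, TRIB3, SESN2 and DDIT4, together with CHAC1. They were picked by the gene name of their probes, which gave 14 probes for these 10 genes among the 34127 probes and 24655 gene names of the array. CHAC1 was taken into the set because of its large rise on these same arrays, so its values are a description and carry no test. The other 9 genes were tested. They too were chosen with earlier results of these data known, so their p-values are not those of a set fixed beforehand. All 14 probes gave a signal well above background on each of the 24 arrays and passed the filter on dim probes, as did 17745 genes in all.

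The integrated stress response is a shared answer of cells to lack of amino acids, unfolded protein in the endoplasmic reticulum, mitochondrial stress, heme shortage or double-stranded RNA. Each of these activates a kinase that phosphorylates the initiation factor eIF2, which slows protein synthesis in general while the mRNA of ATF4 is translated more. ATF4 then binds DNA together with C/EBP family partners and switches on genes for amino acid supply, further transcription factors such as CHOP (the product of DDIT3), and genes that end the response. Because ATF4 is controlled mainly through its translation, its mRNA level is not a measure of its protein.

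The samples came from A549 and H1975, 2 lines of human lung adenocarcinoma cells. Cells of each line received 0.75 mg/ml Pirfenidone, a drug against lung fibrosis, or as control the same volume of PBS, for 6 h or for 24 h. This gave 8 groups (A549 PBS 6 h, A549 Pirfenidone 6 h, A549 PBS 24 h, A549 Pirfenidone 24 h, and the same for H1975) of 3 samples each, and every sample was hybridized to its own Agilent array. The labels do not say whether the 3 samples of a group were separate cultures, so p-values measure the spread between these samples, which may be technical. Levels are the log2 of the probe signal minus that of the array's 75th percentile, so a level of 0 equals that percentile and a difference of 1 is 2-fold. Levels of different probes are not on 1 scale and were not set against each other.

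An array had between 62.7% and 69.5% of all probes well above background, and arrays of 1 group correlated with each other at 0.9822 or more across tested probes. All 4 epithelial markers (KRT8, KRT18, EPCAM and CDH1) were detected in this way on every array of both lines. Of the 3 lung markers, NAPSA was so on 12 of 12 arrays of each line. The lung factor NKX2-1 was so on 0 of 12 A549 and 12 of 12 H1975 arrays, and SFTPB on 1 of 12 and 9 of 12. Of the markers of other cell types, all 3 fibroblast and all 3 endothelial genes were above background on every H1975 array, as was 1 of 3 of each in A549. Of the 3 leukocyte markers, CD68 was above background on 12 of 12 arrays of each line. PTPRC was so on 12 of 12 A549 and 11 of 12 H1975 arrays, and CD3E on 0 of 12 and 1 of 12. Within each line and time, the place of an array on its slide was the same for all arrays of a treatment, so place and treatment cannot be told apart. Arrays came from 4 runs (the day written in the name of the array), and each group had 1 array in each of 3 runs, which were runs 1, 2 and 3 for A549 and runs 1, 3 and 4 for H1975. The pair of A549 24 h arrays of replicate 3, from run 1, stood apart from the other pairs in the values of most members. Many of the results that rest on it are given with and without it. As the pair was singled out on the members' own values, results without it are a description.

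Promoter sequences are shown for members with a match to either DNA motif of the ATF4 family in the 250 bases before the start site. Whether a member moved with Pirfenidone played no part in this choice. The motifs were TGATGNAA, the shared element of C/EBP and ATF factors, and TGACGTCA, the cyclic AMP response element, each on both strands; the motifs do not overlap each other in these windows. The windows are those of RefSeq on GRCh38.p14, which holds 17 windows for the 10 genes. The first motif stood before 3 of the 10 members, against 3.89% of 27305 genes, and the second before 1 of 10, against 2.03%. The first 3 sequences below are whole windows, at chr15:40953221-40953470 for CHAC1, chr1:212565157-212565406 for the first start site of ATF3 and chr19:48872171-48872420 for PPP1R15A. The last is a stretch of 30 bases at chr19:33374060-33374089, before the second start site of CEBPG. All 4 lie on the plus strand and are written 5′ to 3′, and capitals mark the motif.
CHAC1: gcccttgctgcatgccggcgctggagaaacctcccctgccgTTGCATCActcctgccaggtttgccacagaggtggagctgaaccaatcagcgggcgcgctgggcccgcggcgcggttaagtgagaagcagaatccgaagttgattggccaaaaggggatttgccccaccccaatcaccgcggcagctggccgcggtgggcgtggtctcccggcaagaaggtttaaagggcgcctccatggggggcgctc
ATF3: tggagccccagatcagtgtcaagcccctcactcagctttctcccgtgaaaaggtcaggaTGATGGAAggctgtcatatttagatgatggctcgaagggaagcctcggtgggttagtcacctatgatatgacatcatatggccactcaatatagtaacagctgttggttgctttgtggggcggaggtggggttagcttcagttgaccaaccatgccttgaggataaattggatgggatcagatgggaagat
PPP1R15A: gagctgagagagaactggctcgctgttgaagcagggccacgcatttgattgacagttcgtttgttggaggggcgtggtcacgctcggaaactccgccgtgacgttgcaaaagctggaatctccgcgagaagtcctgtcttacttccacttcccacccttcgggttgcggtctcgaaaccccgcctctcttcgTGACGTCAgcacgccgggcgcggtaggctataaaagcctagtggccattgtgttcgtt
CEBPG: cgcgcggcgtcTGATGCAAcctgccggcaa
The match begins 209 bases before the start site in CHAC1, where it reads TTGCATCA on the gene's strand, 191 bases before it in ATF3, 58 bases before it in PPP1R15A and 42 bases before it in CEBPG. No match to either motif was found in the windows of DDIT3, TRIB3, ATF4, SESN2, DDIT4 and CEBPB, which says only that these letters are not in those 250 bases. A match describes the sequence and is no evidence of a bound factor.

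Members of the set rose with Pirfenidone at 6 h in both lines and at 24 h in H1975, while no member passed the test in A549 at 24 h. Of the 9 tested members, 2 passed as higher in A549 at 6 h (DDIT3 and TRIB3), 0 passed in that line at 24 h, 4 passed in H1975 at 6 h (DDIT3, TRIB3, SESN2 and DDIT4) and 6 after 24 h (those 4 with ATF3 and CEBPG), and none passed as lower. A gene passed at an adjusted p of 0.05 or less with a log2 difference of at least 1 in size. Among all 17745 genes tested, 0.147% passed as higher and 0.0507% as lower in A549 at 6 h, and 0.00564% and 0.0113% did so after 24 h. For H1975 the shares were 0.445% higher with 0.0958% lower at 6 h, and 0.981% higher with 0.992% lower at 24 h. The median log2 difference of the 9 members was 0.91, -0.07, 1.0 and 1.08 in that order, beside medians over all genes between -0.02 and 0.05. Every Pirfenidone array lay above every PBS array for 8, 0, 8 and 8 of the 9 members, which held for 7.28%, 0.58%, 10.9% and 17% of all genes. For the 0 members of the A549 24 h comparison, limma also gave 0 members at an unadjusted p under 0.05. Here and below, counts at an unadjusted p were not taken over all genes, so no share stands beside them. RNA was taken from whole cultures, so fewer cells with a transcript and less of it per cell cannot be told apart.

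**Figure D1:**
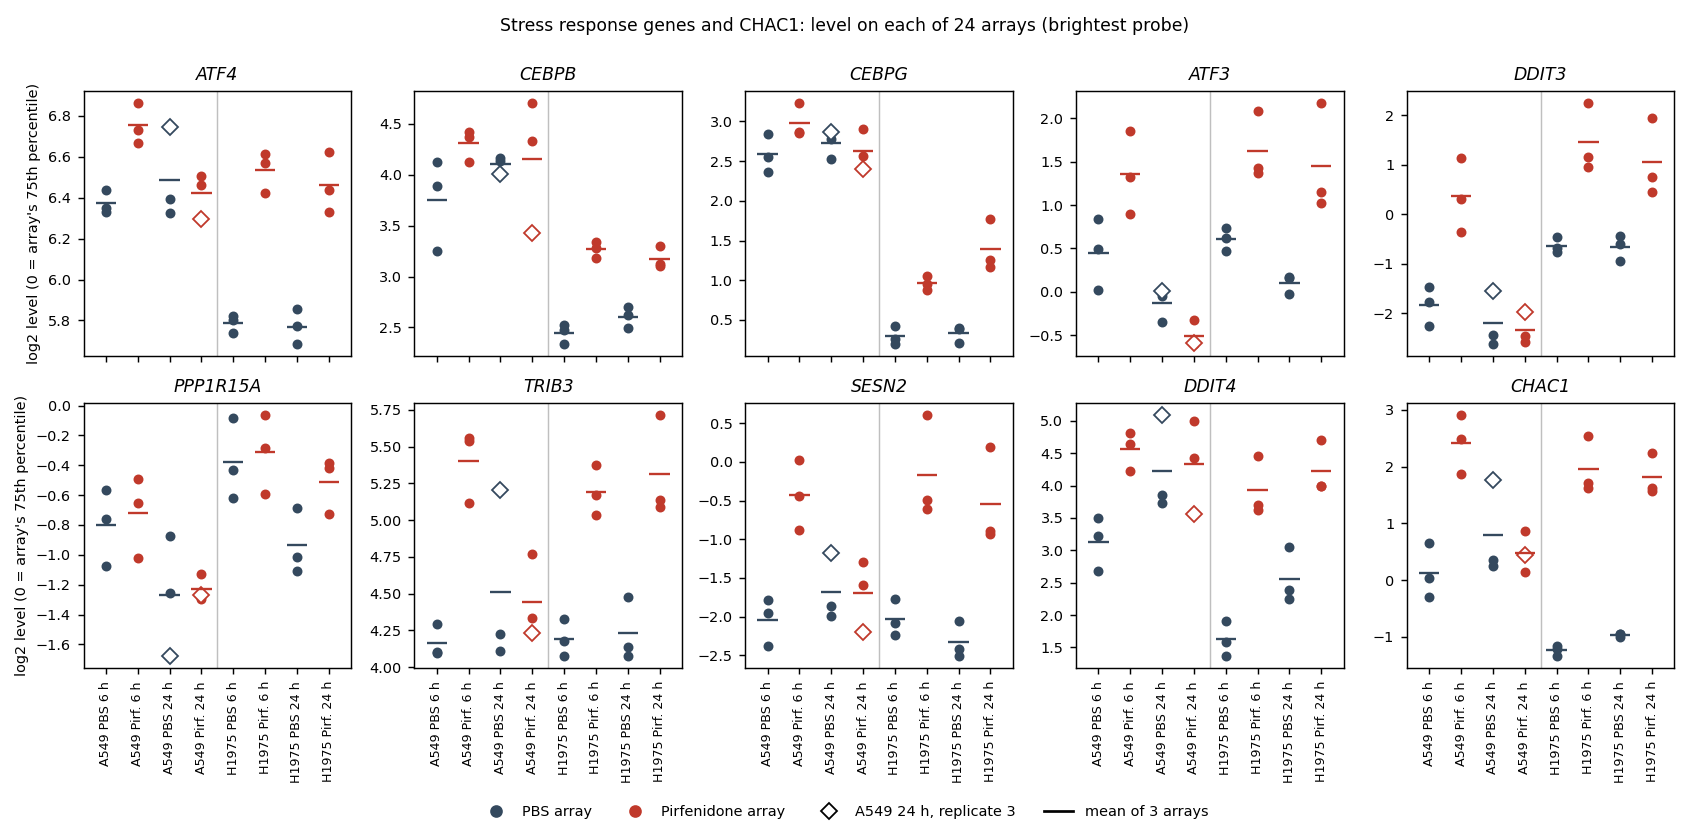
Level of each gene's brightest probe (log2, vertical axis, 0 at the array's 75th percentile; the axis differs between panels) on each of the 24 arrays of 8 groups (horizontal axis), with PBS arrays in dark blue, Pirfenidone arrays in red, lines at the mean of 3 arrays and open diamonds for the A549 24 h arrays of replicate 3. In both 6 h comparisons and in H1975 at 24 h all red points lie above all dark blue points for 8 of the 9 tested genes, PPP1R15A being the exception. The same holds for CHAC1, which was chosen for its rise, and for 7.28% (A549 6 h), 10.9% (H1975 6 h) and 17% (H1975 24 h) of all genes. In A549 at 24 h the open diamond of the PBS group lies above that of the Pirfenidone group for 9 of the 10 genes.

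ATF4, the transcription factor at the center of the response, was higher with Pirfenidone in H1975 by less than 2-fold at both times. In the order of replicates 1, 2 and 3, its level in A549 at 6 h was 6.44, 6.35 and 6.33 on the PBS arrays and 6.86, 6.73 and 6.67 on the Pirfenidone arrays. At 24 h it was 6.39, 6.32 and 6.74 against 6.46, 6.51 and 6.30, where the third PBS array is the high one and the groups overlap. In H1975 the PBS arrays read 5.74, 5.80 and 5.82 and the Pirfenidone arrays 6.61, 6.57 and 6.42 at 6 h. The 24 h levels of that line were 5.68, 5.77 and 5.85 and 6.33, 6.44 and 6.62, so that in H1975 the lowest Pirfenidone array stood clearly above the highest PBS array at both times. The log2 difference was 0.38 ± 0.11 (SE of the fit, 3 arrays per group) in A549 at 6 h, with an adjusted p of 0.275, and 0.75 and 0.69 in H1975, with adjusted p of 0.00165 and 0.00262. Both H1975 differences met the p threshold and stayed under the 2-fold limit, so ATF4 passed in no comparison.

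CEBPB and CEBPG encode C/EBP proteins that pair with ATF4, and of the pair CEBPG rose in H1975 at 24 h. CEBPG levels in H1975 at 24 h were 0.40, 0.21 and 0.38 on the PBS and 1.17, 1.25 and 1.77 on the Pirfenidone arrays, a log2 difference of 1.06 ± 0.17 (2.09-fold, adjusted p 0.00233). At 6 h in that line the levels were 0.42, 0.19 and 0.26 against 0.88, 1.05 and 0.95 and the difference 0.67, with an adjusted p of 0.0588. In both cases the groups did not overlap, and only the 24 h difference passed. In A549 the CEBPG levels were 2.55, 2.85 and 2.36 and 2.87, 3.23 and 2.86 at 6 h, with the lowest Pirfenidone array just above the highest PBS array. They were 2.53, 2.78 and 2.87 and 2.56, 2.91 and 2.40 at 24 h, with overlap. CEBPB passed nowhere, with log2 differences of 0.55, 0.05, 0.82 and 0.57 in A549 at 6 h and 24 h and H1975 at 6 h and 24 h, and adjusted p between 0.104 and 1. Its H1975 Pirfenidone arrays all lay above the PBS arrays, between 3.18 and 3.34 against 2.34 to 2.52 at 6 h.

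ATF3, a stress factor that ATF4 induces and that can repress transcription, differed most in H1975 at 24 h. There its brightest probe read 0.17, 0.16 and -0.03 on the PBS and 1.02, 1.15 and 2.18 on the Pirfenidone arrays, with replicate 3 as the highest. The log2 difference was 1.35 ± 0.28 (2.55-fold, adjusted p 0.011), and ATF3 passed in that comparison alone. In H1975 at 6 h the levels were 0.47, 0.62 and 0.74 and 1.43, 1.37 and 2.09, without overlap, and the difference of 1.02 had an adjusted p of 0.0913. A549 arrays at 6 h read 0.49, 0.84 and 0.02 and 0.90, 1.33 and 1.86, again apart, with a difference of 0.91 and an adjusted p of 0.324. At 24 h, A549 PBS arrays read -0.35, -0.05 and 0.00 and Pirfenidone arrays -0.61, -0.33 and -0.59, which leaves 1 Pirfenidone array just above the lowest PBS array. The A549 arrays of 24 h, with either treatment, all lay below every A549 array of 6 h, and the log2 difference between the times on the PBS arrays, -0.58, did not pass (adjusted p 0.599).

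The array holds 4 ATF3 probes, and they did not move alike. The brightest lies at chr1:212793856-212793915 (hg19, as the array files give it), and the probes at chr1:212792837-212792896 and chr1:212788502-212788561 gave log2 differences of 0.87 and 0.64 in A549 at 6 h. In H1975 these 2 probes gave 1.12 and 0.89 at 6 h, then 1.35 and 1.09 at 24 h. The probe at chr1:212792519-212792578 gave -0.06, -0.19, 0.11 and -0.14 in A549 at 6 h and 24 h and H1975 at 6 h and 24 h. So 3 of the 4 probes gave differences of 0.64 or more in these 3 comparisons and 1 stayed near 0, and why they differ was not tested. Exon and UTR positions of the probes are left out, as no gene annotation of hg19 was at hand. The mean of all 4 ATF3 probes differed by 0.91 in H1975 at 24 h, which is under the fold limit.

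DDIT3, which encodes CHOP, the factor that turns a prolonged stress response toward cell death, rose in 3 of the 4 comparisons. Its level in A549 at 6 h was -1.77, -1.47 and -2.25 on the PBS arrays and -0.35, 0.31 and 1.13 on the Pirfenidone arrays. The groups lie well apart and the Pirfenidone arrays spread over more than 1 log2 unit, with replicate 3 the highest. The log2 difference was 2.19 ± 0.42 (4.57-fold, adjusted p 0.0233). In H1975 the 6 h levels were -0.46, -0.76 and -0.67 against 0.96, 1.16 and 2.24, a difference of 2.08 (adjusted p 0.0148). The H1975 levels at 24 h were -0.93, -0.59 and -0.45 against 0.45, 0.76 and 1.95, a difference of 1.71 (adjusted p 0.0221). The H1975 groups lay apart at both times. A549 at 24 h read -2.62, -2.44 and -1.54 and -2.57, -2.46 and -1.96, where both arrays of replicate 3 exceed the other 4 and the treatments overlap. On the PBS arrays DDIT3 was higher in H1975 than in A549 by 1.20 at 6 h and 1.55 at 24 h (1.88 at 24 h without the A549 pair of replicate 3).

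Of the 2 feedback genes, TRIB3 passed in 3 comparisons and PPP1R15A in none. PPP1R15A encodes GADD34, which guides a phosphatase to eIF2 and so ends the response, and its PBS and Pirfenidone arrays overlapped in all 4 comparisons. Its log2 differences were 0.08, 0.04 and 0.06 for A549 at 6 h and 24 h and for H1975 at 6 h, each with an SE of 0.21. In H1975 at 24 h the PBS arrays read -0.68, -1.01 and -1.11 and the Pirfenidone arrays -0.42, -0.73 and -0.38. The lowest Pirfenidone array there lay just below the highest PBS array. The difference was 0.42, with a 95% interval from -0.01 to 0.86 and an adjusted p of 0.241. In A549 at 6 h the interval ran from -0.36 to 0.51, and in H1975 at 6 h from -0.37 to 0.50, so a 2-fold change lies outside both.

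TRIB3, a pseudokinase that ATF4 and CHOP induce and that restrains both, rose at both times in H1975 and at 6 h in A549. A549 at 6 h read 4.10, 4.29 and 4.09 on PBS and 5.11, 5.54 and 5.56 on Pirfenidone arrays. The difference was 1.24 ± 0.24 (2.37-fold, adjusted p 0.0258). H1975 read 4.32, 4.18 and 4.08 and 5.17, 5.03 and 5.38 at 6 h, and 4.14, 4.07 and 4.48 and 5.09, 5.14 and 5.71 at 24 h. In none of these 3 comparisons did the groups overlap. The H1975 differences were 1.0 at 6 h, at the fold limit itself (adjusted p 0.0436), and 1.08 at 24 h (adjusted p 0.0139). A549 at 24 h read 4.11, 4.22 and 5.21 on the PBS arrays, with replicate 3 at a level that otherwise only Pirfenidone arrays of 6 h reached in this line, and 4.33, 4.77 and 4.23 on the Pirfenidone arrays.

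Sestrin 2 (SESN2) and REDD1 (DDIT4) both hold back mTORC1, the kinase complex that promotes protein synthesis, SESN2 as a sensor of leucine and DDIT4 through the TSC complex. SESN2 levels in A549 at 6 h were -1.79, -1.96 and -2.38 on PBS and -0.88, -0.44 and 0.02 on Pirfenidone arrays, a log2 difference of 1.61 ± 0.35. The groups lie far apart, but the adjusted p was 0.0623, and it passed with the A549 24 h arrays of replicate 3 left out (adjusted p 0.0287). In H1975 SESN2 read -1.77, -2.09 and -2.23 and -0.49, -0.61 and 0.60 at 6 h, a difference of 1.86 (3.64-fold, adjusted p 0.0103). At 24 h it read -2.42, -2.51 and -2.06 and -0.89, -0.93 and 0.19, a difference of 1.79 (adjusted p 0.00829). Replicate 3 was the highest Pirfenidone array each time.

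DDIT4 was the tested member with the largest difference in H1975 at 6 h. There it read 1.92, 1.59 and 1.36 on the PBS and 3.62, 3.69 and 4.45 on the Pirfenidone arrays, a log2 difference of 2.30 ± 0.38 (4.93-fold, adjusted p 0.00382). At 24 h the H1975 levels were 2.24, 2.38 and 3.05 and 4.0, 3.99 and 4.70, a difference of 1.67 (adjusted p 0.0171). All 3 PBS arrays of 24 h stood above all PBS arrays of 6 h. In A549 at 6 h the levels were 3.49, 3.23 and 2.67 and 4.23, 4.65 and 4.81, a difference of 1.43 that did not pass (adjusted p 0.178) and did so without the A549 24 h pair of replicate 3 (adjusted p 0.0264). A549 at 24 h read 3.85, 3.73 and 5.08 on the PBS and 4.42, 5.00 and 3.57 on the Pirfenidone arrays. In this comparison the PBS array of replicate 3 is the highest of all 6 and the Pirfenidone array of replicate 3 the lowest.

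CHAC1, an enzyme that breaks down glutathione and that ATF4 and CHOP induce, was chosen for its rise, and its values are given as they stand. Its brightest probe lies at chr15:41248631-41248690 and the other at chr15:41247814-41247873 (both hg19). A549 arrays at 6 h read 0.65, 0.03 and -0.30 on PBS and 1.87, 2.48 and 2.90 on Pirfenidone, a mean difference of 2.29 (4.88-fold). H1975 arrays read -1.34, -1.15 and -1.21 and 1.72, 1.63 and 2.54 at 6 h, a mean difference of 3.20 (9.17-fold). The H1975 levels at 24 h were -0.95, -0.94 and -1.0 and 1.62, 1.58 and 2.24, a mean difference of 2.77 (6.83-fold). In each of these comparisons all Pirfenidone arrays lay more than 1 log2 unit above all PBS arrays. In A549 at 24 h the PBS arrays read 0.24, 0.36 and 1.77 and the Pirfenidone arrays 0.15, 0.86 and 0.44, a mean difference of -0.31, and without the pair of replicate 3 the mean difference was 0.20. The dimmer probe gave differences of 2.21, -0.31, 3.30 and 2.71 in A549 at 6 h and 24 h and H1975 at 6 h and 24 h. On the PBS arrays the mean level of CHAC1 was 0.13 ± 0.48 (SD, n = 3) in A549 and -1.24 ± 0.10 (SD, n = 3) in H1975 at 6 h, and the Pirfenidone means were 2.42 ± 0.52 (SD, n = 3) and 1.96 ± 0.50 (SD, n = 3).

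**Figure D2:**
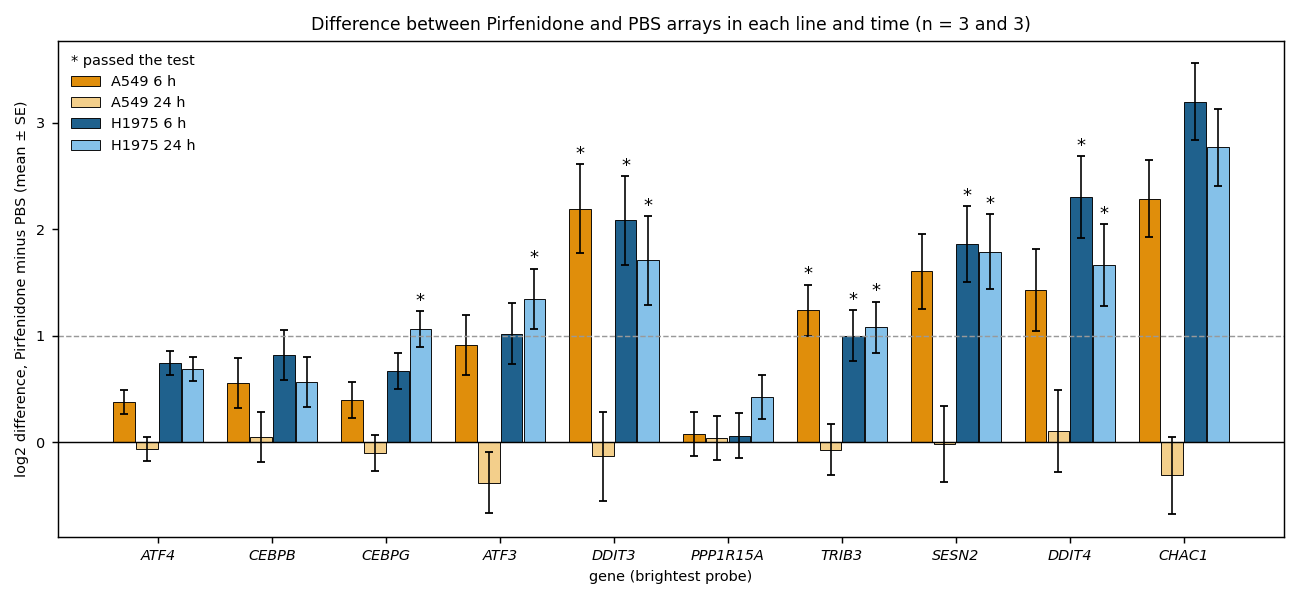
Log2 difference between the means of 3 Pirfenidone and 3 PBS arrays (vertical axis) for the brightest probe of each gene (horizontal axis) in the 4 comparisons (bar color), with error bars of 1 SE of the fit, a dashed line at the 2-fold limit and asterisks where the gene passed. CHAC1 carries no asterisk because it was chosen for its large rise on these arrays and was not tested. The A549 24 h bars lie between -0.38 and 0.11. CHAC1 has the tallest bar in each of the other comparisons, which its choice favored, with 2.29 against 2.19 for DDIT3 in A549 at 6 h.

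The size of the rise differed between runs. Setting the Pirfenidone array of a run against its PBS array, all 10 genes were higher in all 3 runs for A549 at 6 h and for H1975 at 24 h, and 9 of 10 for H1975 at 6 h, where PPP1R15A read 0.34, 0.01 and -0.16 in runs 1, 3 and 4. Run 1 gave the largest difference for 9 of 10 genes in A549 at 6 h, and for 8 and 9 of 10 genes in H1975 at 6 h and 24 h. The 10 genes include CHAC1, which was chosen for its rise. The same counts were not taken over all genes, so whether they are particular to these genes was not tested. For DDIT3 the within-run differences were 3.39, 1.42 and 1.78 in A549 at 6 h (runs 1, 2 and 3) and 2.70, 1.71 and 1.83 in H1975 at 6 h (runs 1, 3 and 4). ATF3 in H1975 at 24 h gave 2.20 in run 1 against 0.85 and 0.99 in runs 3 and 4. ATF4 in A549 at 6 h gave 0.34, 0.43 and 0.38 in runs 1, 2 and 3. With run as a block in the fit, 3, 0, 5 and 6 of the 9 tested members passed in A549 at 6 h and 24 h and H1975 at 6 h and 24 h.

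**Figure D3:**
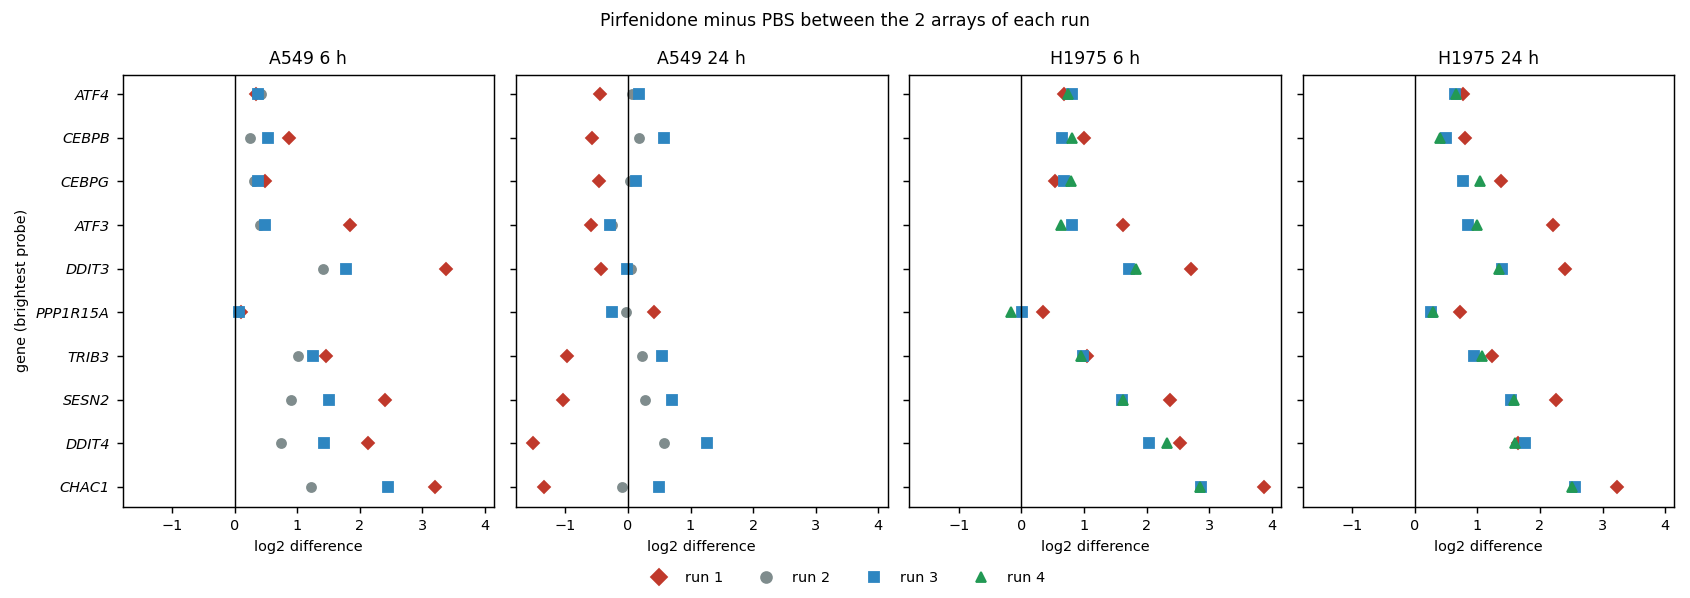
Log2 difference between the Pirfenidone and the PBS array of the same run (horizontal axis, log2) for each gene (vertical axis) in the 4 comparisons (panels), with run 1 as red diamonds, run 2 as gray circles, run 3 as blue squares and run 4 as green triangles. In A549 at 24 h the run 1 pair lies below 0 for 9 of the 10 genes, down to -1.52 for DDIT4, while in the other panels run 1 lies above 0 for every gene.

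In A549 at 24 h no member passed, and the pairs went different ways. The run 1 pair (replicate 3) gave -1.34 for CHAC1, -1.52 for DDIT4, -1.03 for SESN2, -0.97 for TRIB3 and -0.45 for ATF4. The run 3 pair gave 0.50, 1.27, 0.70, 0.55 and 0.18 for the same genes, and the run 2 pair -0.10, 0.57, 0.28, 0.23 and 0.07. Over the 9 tested members, the median within-run difference was -0.58 in run 1, where 1 was above 0, 0.07 in run 2, where 7 were, and 0.18 in run 3, where 6 were. Without the pair of replicate 3, which leaves 2 arrays a group, the log2 differences were 0.92 for DDIT4, 0.49 for SESN2, 0.39 for TRIB3, 0.02 for DDIT3 and -0.27 for ATF3, with 7 of 9 above 0, a median of 0.13 and again no member passing (lowest adjusted p 0.463, for DDIT4). The labels of these 2 arrays were kept as given, and whether they hold the samples named was not tested.

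Leaving out that pair also changed the count of another comparison, since all groups share 1 estimate of the spread. In A549 at 6 h, 4 of the 9 members then passed in place of 2, with SESN2 and DDIT4 added. Of all 17745 genes, 38 then passed as higher there in place of 26. The counts of members in the H1975 comparisons were 4 and 6 with the pair and without it. Those of all genes as higher went from 79 to 87 at 6 h and from 174 to 225 at 24 h. Single arrays mattered as well for the count of members. In A549 at 6 h the count was 0 without PBS replicate 1, 2 or 3 or without Pirfenidone replicate 2 or 3, and 2 without Pirfenidone replicate 1. In H1975 at 6 h it was 1 without PBS replicate 3, 1 without Pirfenidone replicate 3, 2 without PBS replicate 2 and 3 without any of the others. In H1975 at 24 h it was 0 without Pirfenidone replicate 3, the highest array for DDIT3, ATF3, TRIB3, SESN2, DDIT4 and CEBPG, 3 without PBS replicate 1 or 2, and 5 or 6 without any of the others. When a fit held only the 6 arrays of 1 comparison, 0 of the 9 members passed in any of the 4 comparisons, while the differences themselves were the same. After Benjamini-Hochberg adjustment a gene-by-gene paired test of the 2 arrays of each run gave 0 as well, and without adjustment 1, 0, 4 and 5.

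Whether the response differed between the lines was tested on the difference of the log2 differences, H1975 minus A549. At 6 h it passed for 0 of the 9 members (limma, 1 member at an unadjusted p under 0.05), beside 0.0338% of all genes in either direction. The intervals at 6 h ran from -1.34 to 1.13 for DDIT3 and from -0.95 to 0.47 for TRIB3, wide enough to hold a 2-fold difference for DDIT3. At 24 h it passed for 1 member, CEBPG, at 1.16 ± 0.24 (adjusted p 0.0493), beside 0.209% of all genes, and with run as a block in the fit it passed for 5 members. All 9 members had a positive value at 24 h, from 0.39 for PPP1R15A to 1.84 for DDIT3, and 7 had an unadjusted p under 0.05. Without the A549 24 h pair of replicate 3 the value for CEBPG was 0.98 (adjusted p 0.279) and 0 members passed. All 9 were positive then as well, from 0.20 for CEBPB to 1.69 for DDIT3. The count was also 0 without any single array of the 24 h groups other than A549 PBS replicate 1, A549 Pirfenidone replicate 2 and H1975 Pirfenidone replicate 1, with which left out in turn it was 1.

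Between the times, the response of A549 at 24 h minus that at 6 h passed for 0 of the 9 members (limma, 6 at an unadjusted p under 0.05), beside 0.0282% of all genes. The values were negative for all 9, down to -2.32 for DDIT3 (-2.17 without the pair of replicate 3). Their median was -1.29 with that pair and -0.51 without it, and DDIT4 moved from -1.33 to -0.51. In H1975 the same difference passed for 0 members (0 at an unadjusted p under 0.05), beside 0.00564% of all genes, with values from -0.63 for DDIT4 to 0.40 for CEBPG. The 95% interval for DDIT3 in H1975 ran from -1.61 to 0.86, so a fall of the response by the 2-fold limit between 6 h and 24 h lies within it.

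Without the drug, several of these genes differed between the H1975 and the A549 arrays. Each slide held arrays of a single line, so line and slide cannot be told apart here. On the PBS arrays, H1975 minus A549, 4 of the 9 members passed at 6 h and 4 at 24 h, against 32.7% and 33.3% of all genes, so the share of members is close to that of any genes. CEBPG was lower in H1975 by a log2 difference of -2.29 at 6 h and -2.39 at 24 h. DDIT4 differed by -1.51 and -1.66, and CEBPB by -1.31 and -1.49. DDIT3 was the 1 member that passed as higher in H1975. Without the A549 24 h pair of replicate 3 the 24 h differences were -2.32 for CEBPG, -1.23 for DDIT4, -1.54 for CEBPB and 1.88 for DDIT3. Then 1 member passed as higher and 3 as lower, beside 3200 and 2631 of 17745 genes. Between 6 h and 24 h of PBS, 0 members passed in A549 (2 at an unadjusted p under 0.05), beside 0.0902% of all genes, and 0 in H1975 (2 at an unadjusted p under 0.05), beside 0.327%. DDIT4 differed by 1.09 in A549 and 0.94 in H1975, with adjusted p of 0.434 and 0.359, and without the pair of replicate 3 the A549 value was 0.66.

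Upstream of these genes stand the 4 kinases that phosphorylate eIF2: HRI (EIF2AK1), PKR (EIF2AK2), PERK (EIF2AK3) and GCN2 (EIF2AK4). EIF2AK3, the sensor of the endoplasmic reticulum, passed as higher in A549 at 6 h, with a log2 difference of 1.34 (adjusted p 0.00887), and read 0.63 and 0.63 in H1975 (adjusted p 0.23 and 0.0959). The other kinases had differences between -0.09 and 0.16 in the 4 comparisons. Of the 15 tested genes for these kinases, their regulators GCN1, IMPACT, DELE1 and OMA1, eIF2 and its exchange factor eIF2B, EIF2AK3 in A549 at 6 h was the 1 that passed. In that comparison 0.147% of all genes passed as higher.

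Downstream, a list of 36 ATF4 and CHOP target genes outside the set held genes that rose in 3 of the 4 comparisons. Like the other lists, it was chosen with earlier results of these data known. Of its 35 tested genes, 4 passed as higher in A549 at 6 h and 0 after 24 h (limma, 0 at an unadjusted p under 0.05). In H1975, 10 and 14 passed as higher at 6 h and 24 h, and 0 passed as lower anywhere. Over all genes, 0.147%, 0.00564%, 0.445% and 0.981% passed as higher in A549 at 6 h and 24 h and H1975 at 6 h and 24 h. Beside medians over all genes between -0.02 and 0.05, the median log2 differences of the 35 genes were 0.62, -0.04, 0.59 and 0.88. Of the 35, 34, 9, 34 and 35 were above 0. The A549 24 h median turned to 0.12 without the pair of replicate 3, with 28 of 35 above 0, and within runs 1, 2 and 3 it was -0.28, 0.04 and 0.17. In all 3 comparisons with calls, the largest was ADM2, a peptide hormone gene, at 2.02, 2.23 and 2.49 (adjusted p 0.000568, 0.000127 and 1.61e-05). PHGDH, the first enzyme of serine synthesis, rose by 1.93 in H1975 at 24 h, and NUPR1, a stress-induced nuclear protein, by 1.70 in H1975 at 6 h. SLC7A11, the cystine transporter, rose by 1.56 and 2.18 in H1975 at 6 h and 24 h and read 0.58 in A549 at 6 h (adjusted p 0.824). GDF15, a stress cytokine, rose by 1.78 and 2.14 in H1975 and read 0.25 in A549 at 6 h. The other 3 genes that passed in A549 at 6 h were PCK2, a mitochondrial enzyme (1.25), GPT2, an alanine aminotransferase (1.12), and SLC1A4, an amino acid transporter (1.12). Without the A549 24 h pair of replicate 3, 6, 0, 10 and 14 target genes passed, beside 38, 1, 87 and 225 of 17745 genes as higher. The difference between the lines at 24 h, tested gene by gene, passed for 8 target genes with the pair, from 1.1 for GPT2 to 2.75 for ADM2, and for 4 without it. With the pair it passed for 0.209% of all genes in either direction. Without it, 13 of 17745 genes passed as higher and 2 as lower. The count in A549 at 6 h was 2 without PBS replicate 2 or 3 or Pirfenidone replicate 2 or 3, and that in H1975 at 6 h was 4 without PBS replicate 1 and 6 without Pirfenidone replicate 1.

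The neighboring arms of the unfolded protein response, driven by IRE1 and ATF6, gave calls at 6 h. Of 22 tested genes, 4 passed in A549 at 6 h, beside 0.147% of all genes as higher. Without the A549 24 h pair of replicate 3, 5 passed there, beside 38 of 17745 genes as higher. The 4 were DNAJB9 (2.45), HERPUD1 (2.02), SYVN1 (1.11) and MANF (1.02), all parts of protein folding or disposal in the endoplasmic reticulum. In H1975 only HERPUD1 passed, at 6 h (1.41), and 0 of 22 passed at 24 h (5 at an unadjusted p under 0.05), beside 0.445% and 0.981% of all genes as higher. Beside medians over all genes between -0.02 and 0.05, those of this list were 0.65, 0.07, 0.25 and 0.18 in A549 at 6 h and 24 h and H1975 at 6 h and 24 h. In A549 at 24 h the median was 0.37 without the pair of replicate 3, with 19 of 22 genes above 0, and within runs 1, 2 and 3 it was -0.53, 0.36 and 0.36. No A549 gene of the list passed at 24 h (0 at an unadjusted p under 0.05 in limma).

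Of 12 close relatives of the members, 0 passed in A549, and 2 and 1 passed as higher in H1975 at 6 h and 24 h, beside 0.445% and 0.981% of all genes. In limma, 4, 0, 6 and 5 of them had an unadjusted p under 0.05 in A549 at 6 h and 24 h and H1975 at 6 h and 24 h. Whether those counts exceed the share over all genes was not tested. CHAC2, which also degrades glutathione, read -0.53, -0.69 and -0.88 in A549 at 6 h and H1975 at 6 h and 24 h, below 0 where CHAC1 rose (adjusted p 0.711, 0.184 and 0.0283, under the fold limit in the last). ATF5, the nearest relative of ATF4, read -0.45, -0.53 and -0.50 and passed nowhere. JDP2, a relative of ATF3, passed in H1975 at 1.89 and 1.89 (adjusted p 0.0218 and 0.0115). The C/EBP gene CEBPE passed in H1975 at 6 h (1.45). TRIB1, TRIB2, SESN1, SESN3 and PPP1R15B passed nowhere, with SESN1 at 0.24 to 0.46 in both 6 h comparisons against 1.61 and 1.86 for SESN2.

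**Figure D4:**
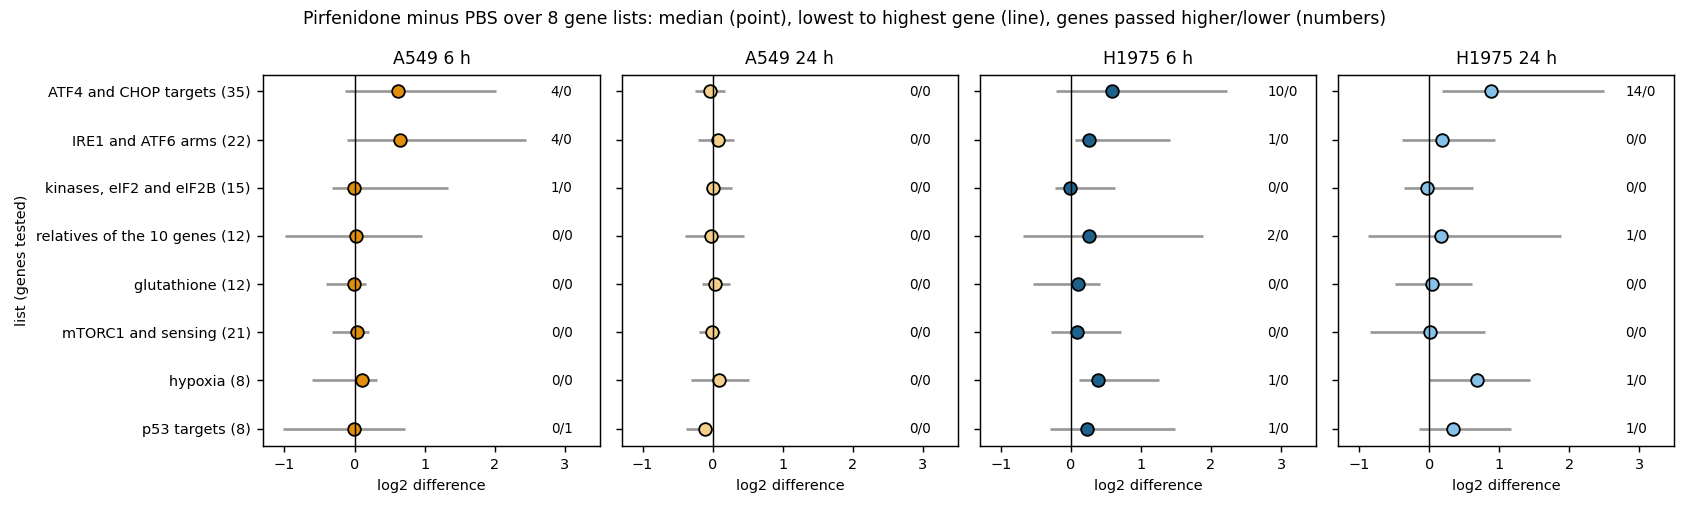
Log2 difference between Pirfenidone and PBS arrays (horizontal axis) over 8 gene lists (vertical axis, with the number of genes tested) in the 4 comparisons (panels), with a point at the median gene, a line from the lowest to the highest gene, and the number of genes that passed as higher and lower at the right. The median of the ATF4 and CHOP targets lies at 0.62 for A549 at 6 h and 0.88 for H1975 at 24 h, and those of the glutathione and mTORC1 lists lie between -0.01 and 0.11 in all 4 panels.

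Few genes of the lists that border on the members' functions passed. Of 12 tested genes for glutathione synthesis and breakdown other than CHAC1, 0 passed in any comparison. Of 21 genes of mTORC1 and its sensing complexes, to which SESN2 and DDIT4 signal, 0 passed either. Over all genes, at most 0.981% passed as higher and 0.992% as lower in a drug comparison. A count of 0 in lists this short is near that share. In limma, 0, 0, 1 and 4 of the glutathione genes and 1, 0, 3 and 9 of the mTORC1 genes had an unadjusted p under 0.05 in A549 at 6 h and 24 h and H1975 at 6 h and 24 h. The share of all genes under that unadjusted limit was not taken, so these counts are not read as a result about the lists. DDIT4 is also induced by hypoxia and by p53. Of 8 hypoxia-induced genes, 1 passed in H1975 at 6 h (ANKRD37, 1.25) and 1 at 24 h (NDRG1, 1.44). The median of these 8 genes was 0.10, 0.09, 0.39 and 0.68 in A549 at 6 h and 24 h and H1975 at 6 h and 24 h. In that order 6, 6, 8 and 7 of 8 were above 0, and limma gave 0, 0, 3 and 4 at an unadjusted p under 0.05. Of 8 genes induced by p53, BBC3, a promoter of apoptosis that CHOP also induces, passed in H1975 at both times (1.48 and 1.16), and ZMAT3 passed as lower in A549 at 6 h (-1.02).

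Across the 24 arrays, each centered on the mean of its line, the pattern of CHAC1 was most like that of ENST00000433309 (Pearson r 0.97), ENST00000443279 (0.96), ADM2 (0.95), ARHGEF2 (0.94) and SCAND2P (0.94) among genes outside the set, of 17680 compared. Of the members, SESN2 was nearest at 0.95, then TRIB3 at 0.94, ATF4 at 0.93, DDIT3 at 0.89, DDIT4 at 0.87, CEBPG at 0.84, ATF3 at 0.80, CEBPB at 0.73 and PPP1R15A at 0.29. Within A549 alone CEBPB stood at 0.43 and within H1975 at 0.98. These values describe the same 24 arrays, which share treatment, time and run, so they carry no p.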

How the data were processed

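RNA of A549 and H1975 cells was measured on 24 one-color Agilent arrays, 8 groups of 3. The authors deposited the scanner output of each array, in which the processed intensity of a spot is background-subtracted and spatially detrended, and a table of log2 values in which the authors centered each probe over the arrays (r = 0.9995 with the centered scanner values). How that table was normalized is not stated in the sources. Here, values were compared after scaling to the 75th percentile of an array.

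From the intensities, control spots and outlier spots were dropped, log2 was taken, the array's 75th percentile subtracted and spots of a probe averaged. A probe counted as detected when a share of 0.5 or more of its spots lay well above background, and was tested when detected on every array of any group, which left 23827 of 34127 probes and 17745 genes. No probe was saturated on any array. One fit of all 8 groups was made with limma 3.58.1 in R 4.3.3, with 16 residual degrees of freedom, and p-values were adjusted by Benjamini-Hochberg over all tested probes. A gene is given by its brightest tested probe, and passed with a log2 difference of 1 or more in size and an adjusted p not above 0.05. Intervals are 95% intervals of this fit. The number of arrays limits the precision. A permutation test of 3 against 3 arrays cannot go below p = 0.1 two-sided, so the permutation adjustment of the study's methods was not used. A t-test paired by run was run as an alternative, with a pairing chosen here. The fit was tested on simulated data.

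The members and the gene lists were chosen with earlier results of these data known. The lists hold the eIF2 kinases with their regulators GCN1, IMPACT, DELE1 and OMA1, eIF2 and eIF2B, relatives of the members, ATF4 and CHOP targets, the IRE1 and ATF6 arms, glutathione enzymes, mTORC1, hypoxia-induced and p53-induced genes. All members are named. Of each list, up to 4 genes that passed are named per comparison, the largest in size, plus CHAC2, ATF5, TRIB1, TRIB2, SESN1, SESN3, PPP1R15B and the eIF2 kinases, and the 5 genes most like CHAC1 by Pearson r. The array has no probe named for 1 gene of the kinase list, and FGF21 of the targets and GGT6 of the glutathione list did not pass the filter. Alternatives were normexp background correction, quantile normalization, the authors' table, other filters on dim probes, a block for run, slide or replicate number, a fit of the compared arrays alone, Holm adjustment, no fold limit, the mean of or any probe of a gene, and leaving out arrays. Probe positions are those of the array files (hg19), and promoter windows those of RefSeq (GRCh38.p14).

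Replicate numbers were checked for pairing by the correlation of same-numbered arrays' deviations from their group means. In H1975 at 6 h these were -0.48, 0.43 and -0.68, so the numbers do not pair the arrays of that comparison, and by run they were 0.82, 0.50 and 0.70. In the other comparisons number and run pair the same arrays, with 0.70, 0.58 and 0.64 in A549 at 6 h, 0.39, 0.08 and -0.10 in A549 at 24 h, and 0.46, 0.53 and 0.72 in H1975 at 24 h.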

Additional observations from a re-analysis of the deposited data

Results flagged for a closer look

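The drug response of CEBPG at 24 h differed between the lines, by a log2 difference of 1.16 in H1975 relative to A549 (limma, adjusted p 0.0493), as the test of the difference itself. Without the A549 24 h pair of replicate 3 the value was 0.98 (adjusted p 0.279), and the call was also lost without most single arrays of the 24 h groups, with normexp, with the authors' values and with no filter on dim probes.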

How the results depend on the processing

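The differences kept their direction in both lines at 6 h and for H1975 at 24 h under each alternative for all tested members but PPP1R15A, while the calls depended on how the spread was estimated. The main counts of members that passed were 2, 0, 4 and 6 in A549 at 6 h and 24 h and H1975 at 6 h and 24 h, 1 for the difference between lines at 24 h, and 4, 0, 10 and 14 for the target genes. With only the compared arrays in the fit, with Holm adjustment and with the t-test paired by run after Benjamini-Hochberg, 0 members passed in each drug comparison, and with the first 2 also 0 for the line difference. Target genes then numbered 0 and 0 at 6 h (A549 and H1975) with the compared arrays, 2, 2 and 8 with Holm in A549 at 6 h and H1975 at 6 h and 24 h, and 0 in all with the t-test. Without adjustment the t-test gave 1 member and 8 targets in A549 at 6 h. Between the PBS arrays of the lines, Holm left 1 member of 4 at 6 h and 1 at 24 h. Without a fold limit 9 targets passed for A549 at 6 h and 28 for H1975 at 24 h. In A549 at 6 h normexp gave 1 member, a slide block 4 and leaving out the A549 24 h pair of replicate 3 gave 4. For the line difference at 24 h, normexp, the authors' values, no filter on dim probes and leaving out that pair gave 0, and the run block and slide block gave 5 each. The slide block gave 1 for the difference between times in A549. The replicate block, whose numbers do not pair all arrays, gave 2, 0, 5 and 6 members in the drug comparisons and 2 for the line difference. The cause of these changes was not tested.

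Leaving out each array in turn gave 0 to 2 members in A549 at 6 h, 1 to 3 in H1975 at 6 h, 0 to 6 in H1975 at 24 h and 0 to 1 for the line difference at 24 h, and 2 to 3, 4 to 10 and 10 to 15 targets in A549 at 6 h and H1975 at 6 h and 24 h. Log2 differences that changed sign in this way ran from -0.057 to 0.23 for PPP1R15A for A549 at 6 h and from -0.060 to 0.21 for H1975 at 6 h. In A549 at 24 h they ran from -0.23 to 0.54 for DDIT4, -0.15 to 0.06 for ATF4, -0.27 to 0.28 for TRIB3, -0.34 to 0.20 for DDIT3, -0.17 to 0.24 for PPP1R15A, -0.22 to 0.24 for SESN2, -0.22 to 0.42 for CEBPB and -0.24 to 0.01 for CEBPG. Without both arrays of that pair they were 0.13 for ATF4, 0.39 for TRIB3, 0.083 for CEBPG, 0.92 for DDIT4, 0.02 for DDIT3, -0.15 for PPP1R15A and 0.49 for SESN2. The probes of all members were well above background on every array. Whether the handling of background had a part in the changed calls was not tested.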
